A study of Aspergillus niger with 4 samples.

Results

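In Aspergillus niger, a filamentous fungus, grown on maltose, 29 of 10898 gene models stood out as single genes with at least 4 times as much transcript in a strain without hapX. They were chosen by their measured level. A riser had a mean in delta-hapX at least 2 times that of the reference (0.5 CPM added to each mean, CPM being counts scaled to a library total of 1000000), a mean of 5 CPM or more in delta-hapX, and no overlap between the libraries of the strains. The single risers are those with a ratio of at least 4 and a coding length of more than 300 and under 6000 bases whose preceding and following identifier numbers belong to no riser. The difference between the strains therefore chose these genes, and it is given below as a description with no test. Of 334 risers, 57 reached a ratio of 4. Among these 57, 27 were numbered next to another riser and 1 more failed only the limits on length, which left the 29.

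The reference strain was N593 delta-kusA, with the genotype cspA1, pyrG- and kusA::amdS. The strain called delta-hapX below carried the same alleles and in addition delta-hapX::hph. Loss of kusA, which encodes a Ku protein of non-homologous end joining, favours targeted gene replacement, and amdS and hph are the selection markers acetamidase and hygromycin phosphotransferase. The cspA1 allele gives short conidiophores, and pyrG- strains need uridine because they lack orotidine phosphate decarboxylase. Cultures were first grown for 16 h in complete medium with 2% fructose, then washed and given 25 mM maltose in 50 ml of minimal medium at pH 6 for 2 h before freezing. Each strain had 2 libraries, a and b. The labels do not say whether these came from separate cultures, so the spread between them may be technical, nor how many transformants the deletion strain represents.

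HapX is a bZIP transcription factor of filamentous fungi that acts through the CCAAT-binding complex. In Aspergillus nidulans and Aspergillus fumigatus it represses genes of iron-consuming pathways, such as heme synthesis and respiration, when iron is scarce, and it supports the making of siderophores, the secreted iron chelators. A gene held down by a repressor, directly or through other regulators, has more transcript when the repressor is lost. The deposited tables identify genes only by NRRL3 numbers, and 0 of the 10898 numbers were found in the RefSeq table of the assembly ASM285v2. No gene below can therefore be given a name or function, hapX itself cannot be located, and no list of iron, heme or carbon genes could be counted. Genes are ordered instead by their level in the reference strain.

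The expected counts of a library summed to between 3505555 and 4264311 reads. A count of 3, the upper limit that 0 reads allow, was worth 0.704 to 0.856 CPM. The reads carry no molecular identifiers and are not independent molecules, so the intervals below cover counting error only. In RNA from whole mycelium, more transcript per cell and more cells holding it cannot be told apart.

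The 29 genes covered a wide span of expression and of change. Their ratio ran from 4.10 to 30.4 with a median of 5.99, against a median of 1.01 over all 10898 genes. Of these 29, 10 lay under 5, another 11 between 5 and 8, and 8 at 8 or more, of which 7 reached 10. The background to these numbers is that 0.523% of all listed genes met the level, separation and ratio of 4, and that 28.1% of all listed genes had both delta-hapX values above both reference values. The edgeR quasi-likelihood fit over 8535 genes, which tests the contrast that chose them, retained all 29 after its filter on low counts and called 29 of them higher at a Benjamini-Hochberg adjusted p under 0.05, where 12.2% of all tested genes were called higher. Nothing is read from that count. The fitted log2 fold changes of the 29 had a median of 2.68 and ran from 2.08 to 6.32.

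**Figure D1:**
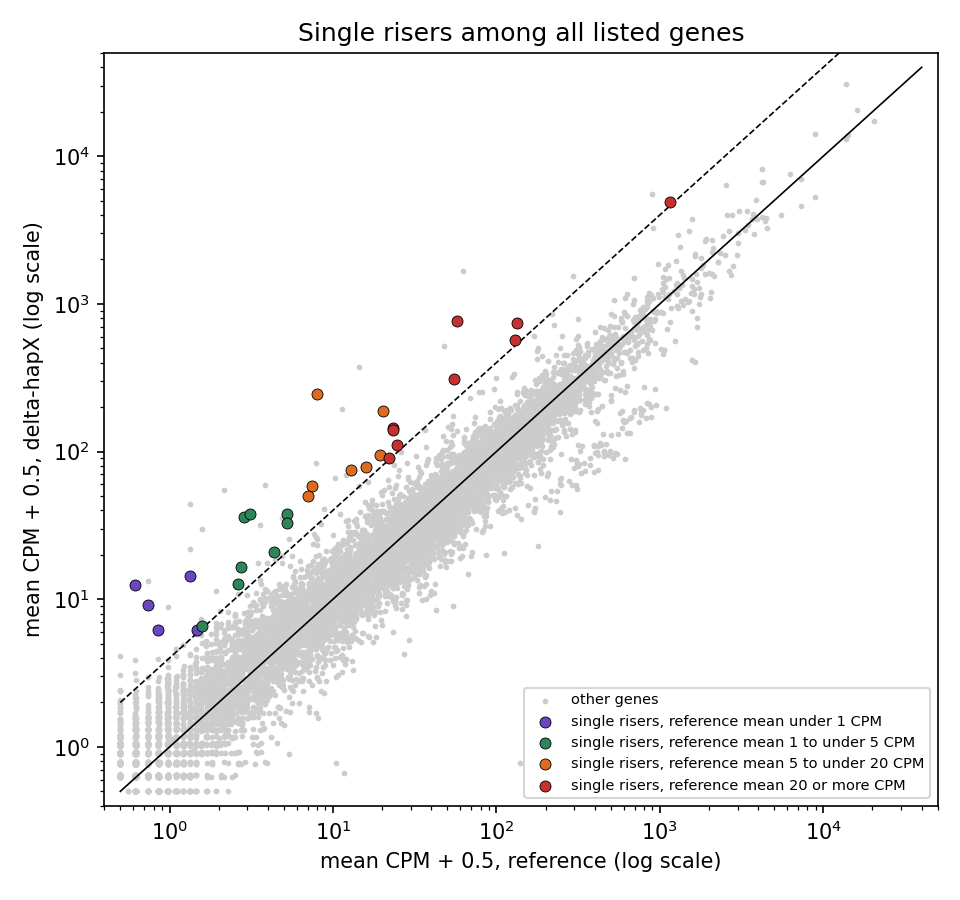
Mean CPM + 0.5 of every listed gene in delta-hapX (vertical, log scale) against the reference (horizontal, log scale), with the 29 single risers coloured by their level in the reference. The solid line marks equal levels and the dashed line a ratio of 4. The coloured points lie on or above the dashed line because the rule requires it, and their reference means extend from 0.117 to 1156 CPM. Grey points above the dashed line failed another condition of the rule.

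Together the 29 genes took 0.17% and 0.177% of the reads in the reference (library a, then b) and 0.921% and 0.839% in delta-hapX (a, then b). One gene, NRRL3_06502, supplied 68.4% and 64.9% of that total in the reference and 58.0% and 53.5% in delta-hapX. Without it the other 28 genes took 0.0539% and 0.0619% of the reads in the reference and 0.387% and 0.39% in delta-hapX. The summed level of the group therefore mostly reflects 1 gene, and the values below are given gene by gene.

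In 5 genes the reference mean was under 1 CPM, so that the starting point rested on at most 8 reads summed over the reference libraries. NRRL3_08596 (coding length 777 bases) had 1 and 0 reads in the reference (library a, then b) and 41 and 46 reads in delta-hapX (a, then b). Its level went from 0.117 ± 0.166 to 11.9 ± 1.73 CPM (mean ± SD, n = 2 each). By summed reads the ratio was 99.6, but with 1 read in the denominator the 95% counting interval (Clopper-Pearson) ran from 17.4 to 3977. The gene was close to silent in the reference and clearly present in both delta-hapX libraries, and the size of the ratio is not fixed by these counts.

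NRRL3_08281 (1320 bases) had 0 and 2 reference reads and 44 and 20 reads in delta-hapX, which is 0.241 ± 0.341 against 8.58 ± 4.07 CPM (SD, n = 2). Its delta-hapX libraries differed 2.01-fold, the largest replicate ratio among the 29 genes in that strain. NRRL3_03144 (1308 bases) had 2 and 5 reads in the reference and 62 and 41 in delta-hapX, a ratio of summed reads of 16.8 with an interval from 7.89 to 42.9. NRRL3_11752 (1887 bases) had 2 and 1 against 21 and 21 reads, and its ratio of summed reads, 16.0, had an interval from 5.12 to 80.8. In each of these genes the lowest delta-hapX value was at least 9.69 times the highest reference value.

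NRRL3_09814 (1758 bases) was the weakest of this group. It had 0 and 8 reads in the reference and 26 and 16 in delta-hapX, or 0 and 1.93 CPM against 6.77 and 4.56 CPM. The reference libraries differed by 2.28 on the scale of log2(CPM + 0.5), more than the 2.07 between the strains, and it was the only one of the 29 genes for which a replicate difference exceeded the strain difference. Without reference library a its fitted log2 fold change fell from 2.55 to 1.54, with an edgeR adjusted p of 0.133, and without reference library b, where the other library had 0 reads, it became 7.48. Over the alternative fits that gave one, its adjusted p ranged from 0.000284 to 0.133.

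In 8 genes the reference mean lay between 1 and 5 CPM, and their delta-hapX means ran from 6.07 to 37.5 CPM. NRRL3_03087 (1614 bases) had 3.28 and 1.45 CPM in the reference (library a, then b) and 38.0 and 33.4 CPM in delta-hapX (a, then b), a ratio of 12.6. NRRL3_09685 (1767 bases) had 1.88 and 3.38 CPM in the reference, against 30.2 and 44.8 CPM in delta-hapX, a ratio of 12.1. These had the largest ratios of this group. Their lowest delta-hapX values were 10.2 and 8.94 times their highest reference values, a separation that the rule partly sets.

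NRRL3_01957 (2043 bases) had 7.04 and 2.41 CPM in the reference against 40.1 and 34.2 CPM. NRRL3_05496 (1653 bases) had 5.16 and 4.34 CPM against 32.55 and 31.95 CPM. NRRL3_02810 (1728 bases) had 2.81 and 1.69 CPM against 18.0 and 14.0 CPM. The replicates of NRRL3_05496 were close in both strains, at 4.75 ± 0.576 and 32.2 ± 0.425 CPM (SD, n = 2 each), whereas the reference libraries of NRRL3_01957 differed 2.91-fold.

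NRRL3_10597 (2004 bases) was the least even of the group, with 1.88 and 5.79 CPM in the reference, against 26.8 and 14.3 CPM in delta-hapX. Its lowest delta-hapX value was 2.46 times its highest reference value, and its ratio of means with 0.5 CPM added was 4.85. NRRL3_05252 (1194 bases) had 2.35 and 1.93 CPM against 13.3 and 11.1 CPM. NRRL3_11389, at 2370 bases the longest of the 29 coding sequences, had 0.938 and 1.21 CPM against 7.29 and 4.85 CPM. It rested on 9 reads in the reference and 45 in delta-hapX. Its ratio of summed reads was 5.72, with a counting interval from 2.76 to 13.3.

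**Figure D2:**
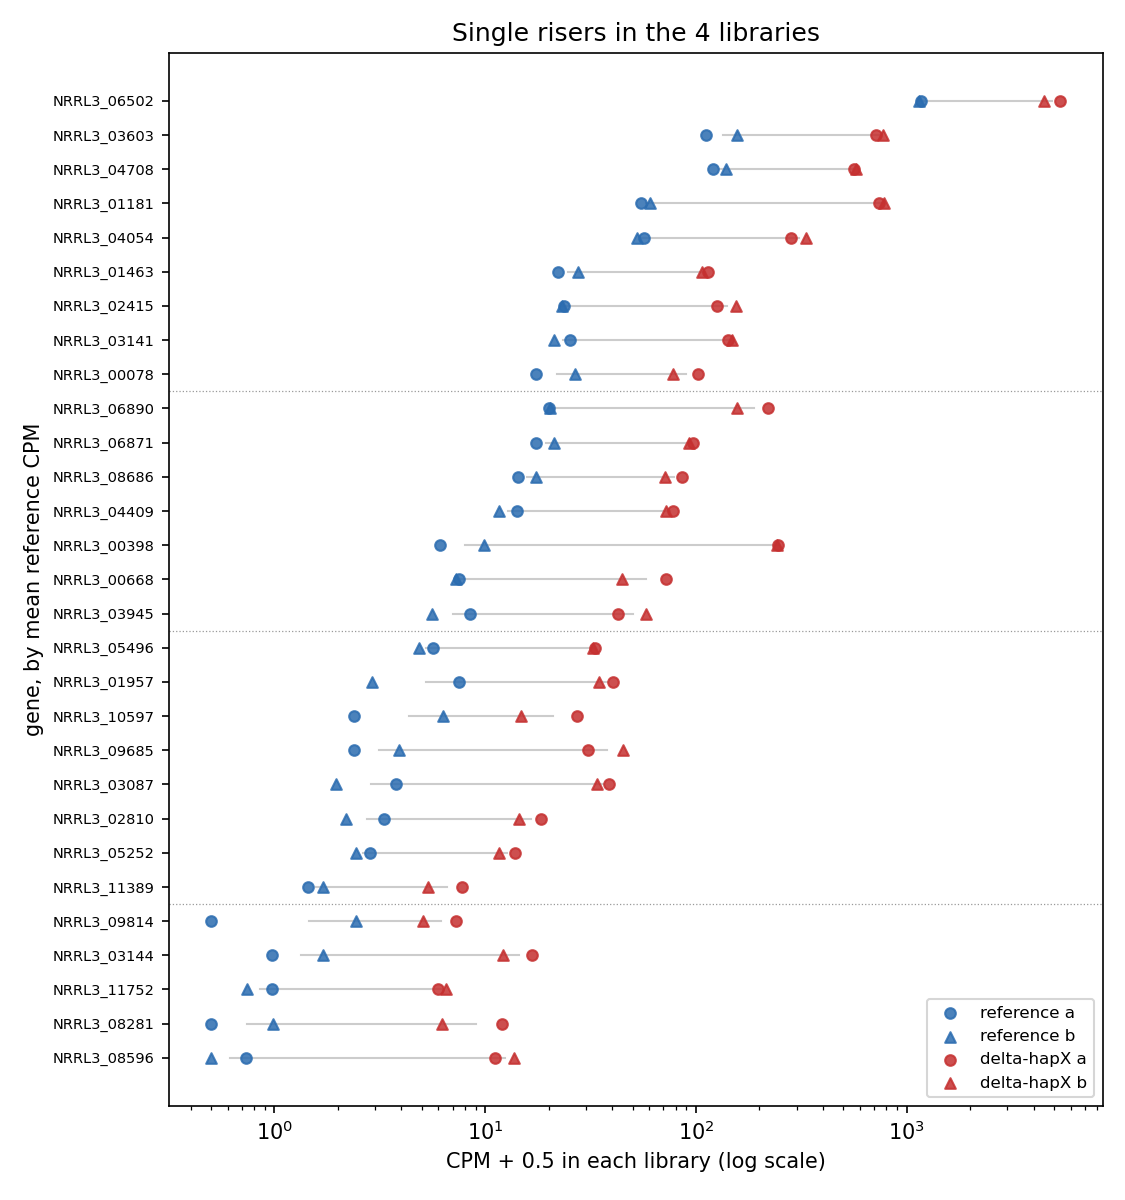
CPM + 0.5 (horizontal, log scale) of the 29 single risers in each library, ordered by mean reference CPM. Blue marks are the reference and red marks delta-hapX, circles library a and triangles library b. Grey lines join the strain means and dotted lines separate the levels at 1, 5 and 20 CPM. The reference libraries of NRRL3_09814, with 0 and 1.93 CPM, lie far apart, while those of NRRL3_06502, with 1164 and 1147 CPM, nearly coincide.

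In 7 genes the reference mean lay between 5 and 20 CPM. The largest ratio of means with 0.5 CPM added among all 29 genes was found here, and that ranking depends on the added constant. By this ratio NRRL3_08596 had 20.1 and NRRL3_08281 12.2. By summed reads these genes had 99.6 and 36.6, the highest values, but on 1 and 2 reference reads. NRRL3_00398 (957 bases) had 24 and 39 reads in the reference (library a, then b) and 939 and 849 reads in delta-hapX (a, then b). It went from 7.52 ± 2.68 CPM without the deletion to 243 ± 1.65 CPM with it (SD, n = 2 each), a ratio of 30.4. By summed reads the ratio was 32.5 with a counting interval from 25.3 to 42.5. It thus combined a starting level above the counting floor with delta-hapX replicates that differed 1.01-fold, but its reference libraries differed 1.67-fold. Its fitted log2 fold change of 5.03 became 4.69 when library a of the reference was dropped, and 5.45 when library b was dropped instead. By the counting intervals its size is still far better fixed than that of NRRL3_08596.

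NRRL3_06890 (1359 bases) had 19.5 and 19.8 CPM in the reference, against 219 and 156 CPM in delta-hapX, a ratio of 9.34. NRRL3_00668 (1812 bases) had 7.04 and 6.76 CPM against 71.4 and 43.9 CPM, a ratio of 7.86. Both genes had near-equal reference libraries and unequal delta-hapX libraries, with library a 1.40-fold and 1.62-fold above library b. NRRL3_03945 (2031 bases) had the opposite order, with 7.97 and 5.07 CPM against 42.2 and 57.6 CPM.

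The remaining genes of this level changed by a smaller factor. NRRL3_04409 (666 bases) had 13.6 and 11.1 CPM in the reference, against 77.6 and 71.3 CPM in delta-hapX. NRRL3_08686 (696 bases) had 13.8 and 16.9 CPM against 85.7 and 70.7 CPM. NRRL3_06871, at 441 bases the shortest of the 29 coding sequences, had 16.9 and 20.8 CPM against 96.1 and 92.1 CPM. Their ratios were 5.83, 4.96 and 4.90, and in all 3 the lowest delta-hapX value was at least 4.19 times the highest reference value.

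In the other 9 genes the reference mean was 20 CPM or more, and counting error was small beside the change. NRRL3_01181 (654 bases) had the largest ratio among them. It had 232 and 249 reads in the reference (library a, then b) and 2848 and 2727 reads in delta-hapX (a, then b), or 57.3 ± 4.03 against 759.8 ± 25.7 CPM (SD, n = 2 each). The ratio of 13.2 had a counterpart by summed reads of 13.3 with an interval from 12.1 to 14.6. NRRL3_03603 (1260 bases) had 111 and 156 CPM in the reference, against 714 and 768 CPM in delta-hapX, and its reference libraries were the less even, with a ratio between them of 1.40.

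NRRL3_03141 (1161 bases) had 24.9 and 20.8 CPM in the reference, against 141 and 148 CPM in delta-hapX. NRRL3_02415 (1260 bases) had 23.2 and 22.7 CPM against 126 and 155 CPM. NRRL3_04054 (1011 bases) had 56.3 and 52.1 CPM against 283 and 331 CPM. The ratios of these genes and of NRRL3_03603 fell within a narrow span, from 5.53 to 6.22.

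NRRL3_04708 (1722 bases) had 119.6 and 139 CPM in the reference, against 559 and 573 CPM in delta-hapX. NRRL3_01463 (1824 bases) had 21.6 and 27.0 CPM against 113 and 107 CPM. NRRL3_00078 (1152 bases) had 16.9 and 26.1 CPM against 102 and 77.3 CPM. These had ratios of 4.37, 4.45 and 4.10, and NRRL3_00078 was the gene closest to the limit of 4.

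NRRL3_06502 (1062 bases) took the most reads of the 29 genes. It had 4965 and 4753 reads in the reference (library a, then b) and 20503 and 15736 reads in delta-hapX (a, then b). Its level rose from 1156 ± 12.0 to 4914 ± 601 CPM (mean ± SD, n = 2 each), a ratio of 4.25. The difference of 3758 CPM was larger than that of the other 28 genes together. Without delta-hapX library a its ratio came to 3.88, below the limit of the rule, library b lying at 4489 CPM and library a at 5339 CPM.

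Per length, the genes with the highest CPM in delta-hapX kept their order, and some of the lower ones changed places. FPKM, the authors' value scaled to gene length and to mapped fragments, was used for this comparison. NRRL3_06502 led in both strains, at 1090 ± 11.1 FPKM (reference) and 4644 ± 569 FPKM (delta-hapX) (SD, n = 2 each). In delta-hapX it was followed by NRRL3_01181 with 1192 ± 40.0 FPKM and by NRRL3_03603 with 587 ± 30.2 FPKM. NRRL3_04708 with 326 ± 5.73 FPKM and NRRL3_04054 with 306 ± 34.0 FPKM came next and differed by less than the SD of the latter. The short NRRL3_06871, 94.1 CPM in delta-hapX, stood at 225 ± 6.74 FPKM, next below NRRL3_00398 with 256 ± 1.80 FPKM.

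Ranked by mean FPKM among the 10898 genes, the 29 had a median rank of 7683 for the reference and 3629 for delta-hapX. Only NRRL3_06502 was among the 1000 highest in the reference, at rank 142, whereas 8 were in delta-hapX, where it reached rank 19. NRRL3_00398 went from rank 6674 to 505 and NRRL3_01181 from 1579 to 98. At the other end NRRL3_11389 moved from 9677 to 8325 and NRRL3_09814 from 9515 to 8069, and both stayed among weakly expressed genes. The rule fixes the direction of these shifts and, through its limits on ratio and level, a least size.

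The spread between replicates is not the contrast between strains, though the condition of no overlap uses it. That condition removed 0 of the 57 genes with a ratio of 4. The spread is only a rough guide to the error of the values above, since each strain had 2 libraries and their differences may be technical. The libraries of a strain differed, on the scale of log2(CPM + 0.5), by a median of 0.319 for the reference and 0.25 for delta-hapX over the 29 genes. The medians over all 10898 genes were 0.227 and 0.224, and over the 7614 genes with a mean of 5 CPM or more 0.179 and 0.172. Over the 334 risers they were 0.314 and 0.231, so the spread of the 29 was close to that of risers in general. A replicate difference above 0.5 was found for 12 of the 29 genes in the reference and for 6 in delta-hapX. The share over all genes was not counted, so nothing is read from these counts. The rule asks for separate strains and a ratio of at least 4, so the counts that follow are largely set by it and support nothing. The log2 ratio between strains was larger than both replicate differences in 28 of the 29. In 24 genes the lowest delta-hapX CPM was at least 4 times the highest reference CPM. In 3 genes, NRRL3_09814, NRRL3_10597 and NRRL3_00078, it was under 3 times as high. Library a was above library b in 19 of the 29 in delta-hapX (65.5%, against 51.6% of all genes) and in 14 of the 29 in the reference.

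**Figure D3:**
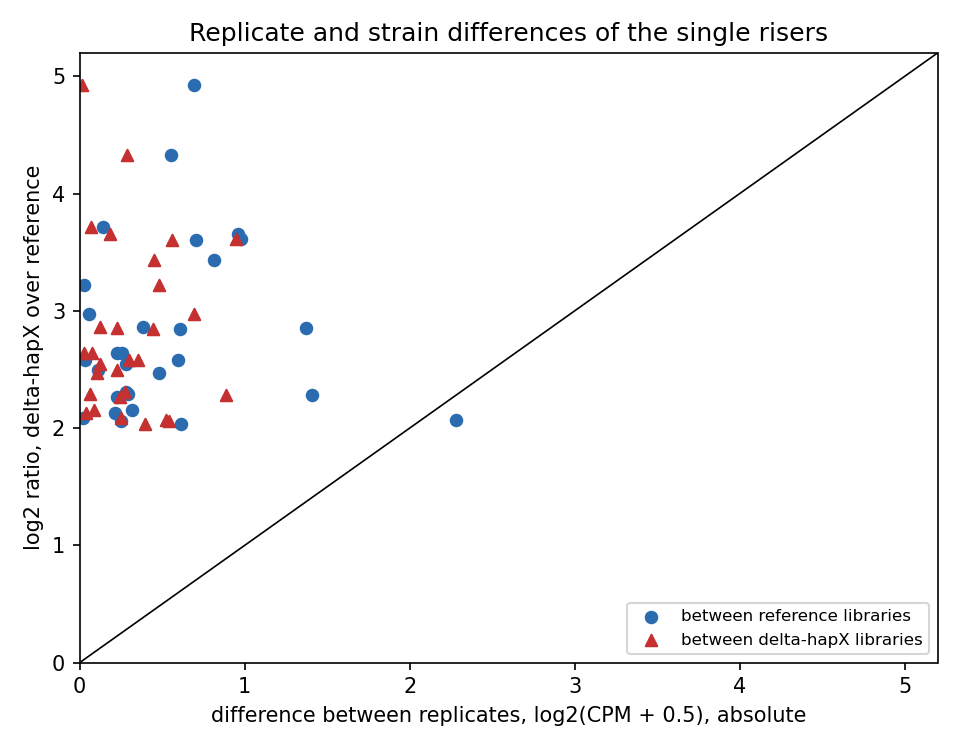
Log2 ratio between strains (vertical) of the 29 single risers against the absolute difference between the libraries of 1 strain in log2(CPM + 0.5) (horizontal). Blue circles are the reference and red triangles delta-hapX, and each gene gives 1 of each. The line marks equality. Apart from the reference point of NRRL3_09814 at 2.28, which lies below the line, the points lie above it.

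Coding length enters the rule directly through its limits, which the 29 genes did not approach. It also enters indirectly, because CPM is not scaled to length and the minimum of 5 CPM is easier to reach for a long gene. With FPKM in place of CPM the rule gave 33 genes, 26 of them shared with the 29. Those lost were NRRL3_09814, NRRL3_11389 and NRRL3_11752, of 1758, 2370 and 1887 bases. Their delta-hapX means were below 5 FPKM, and 2 of them also fell below a ratio of 4 in FPKM with 0.5 added. The 29 genes had a median of 1320 bases, with quartiles of 1062 and 1767 and a range from 441 to 2370. All listed genes had a median of 1300.5 bases with quartiles of 864 and 1827, and the risers had a median of 1389. Of the 29, 6 were shorter than 1000 bases, 19 had 1000 to under 2000 bases and 4 had 2000 or more. By starting level, the 5 genes under 1 CPM in the reference had a median of 1320 bases, against 1086 for all 1760 genes at that level. The 8 genes at 1 to 5 CPM had a median of 1747.5 bases, against 1176 for all 1659. The 7 genes at 5 to 20 CPM had 957 bases, against 1182 for all 2030. The 9 genes at 20 CPM or more had 1161 bases, against 1476 for all 5449. Each level holds few of the 29 genes, and no trend with level was tested. No gene matched the RefSeq table, so neither the proteins nor the promoters could be compared.

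The identifier numbers give the only information on surroundings, and whether they follow chromosome order is not known here. The rule keeps risers out of the positions 1 number away. Within that limit the 56 listed neighbours at a distance of 1 had a median ratio of 1.06, and 14 of them (25.0%) exceeded 1.5. Among all 10564 genes that are not risers the median was 0.99 and 12.2% exceeded 1.5. The 14 belonged to 11 of the 29 genes. In 3 of these, NRRL3_00668, NRRL3_02810 and NRRL3_00078, the neighbours on both sides exceeded 1.5. A neighbour below a ratio of 0.67 was found for 7 of the 29, but the share over other genes was not counted, so nothing is read from it. Beside NRRL3_00078, NRRL3_01181 and NRRL3_02810 stood a neighbour that only the minimum of 5 CPM kept from being a riser. These neighbours, NRRL3_00079, NRRL3_01182 and NRRL3_02811, had delta-hapX means of 3.56, 1.38 and 0.974 CPM. Several of the 14 had too few reads for a firm ratio, such as NRRL3_01182 next to NRRL3_01181 with reference and delta-hapX means of 0.355 and 1.38 CPM. At a distance of 2, where risers are allowed, 3 of 57 neighbours (5.26%) were risers, against 3.06% of all genes.

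These 3 places, described here after their values were seen, belong to NRRL3_00668, NRRL3_03945 and NRRL3_10597. NRRL3_00668, with its ratio of 7.86, stood between NRRL3_00667 with a ratio of 1.57 (22.0 against 34.8 CPM, reference against delta-hapX means) and NRRL3_00669 with 1.91 (5.49 against 10.9 CPM). The next number, NRRL3_00670, was a riser with 2.05 (4.27 against 9.28 CPM). NRRL3_03945 had NRRL3_03944 with 1.65 and the riser NRRL3_03943 with 2.87 on its lower side. NRRL3_10597 likewise had NRRL3_10596 with 1.74 and the riser NRRL3_10595 with 2.33. In these 3 places the nearest genes on 1 or both sides also had higher means in delta-hapX, by smaller factors, and these differences were not tested.

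A different arrangement was seen for NRRL3_03141 and NRRL3_03144, the closest pair among the 29. Their ratios were 6.22 and 10.8, while NRRL3_03142 between them had a ratio of 0.517 (97.1 against 49.99 CPM) and NRRL3_03143 a ratio of 0.823 (231 against 190.1 CPM). On the outer sides NRRL3_03140 had a ratio of 1.28 and NRRL3_03145, with 0.359 and 0.415 CPM, was hardly detected. The next closest pair, NRRL3_06871 and NRRL3_06890, lay 19 numbers apart.

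**Figure D4:**
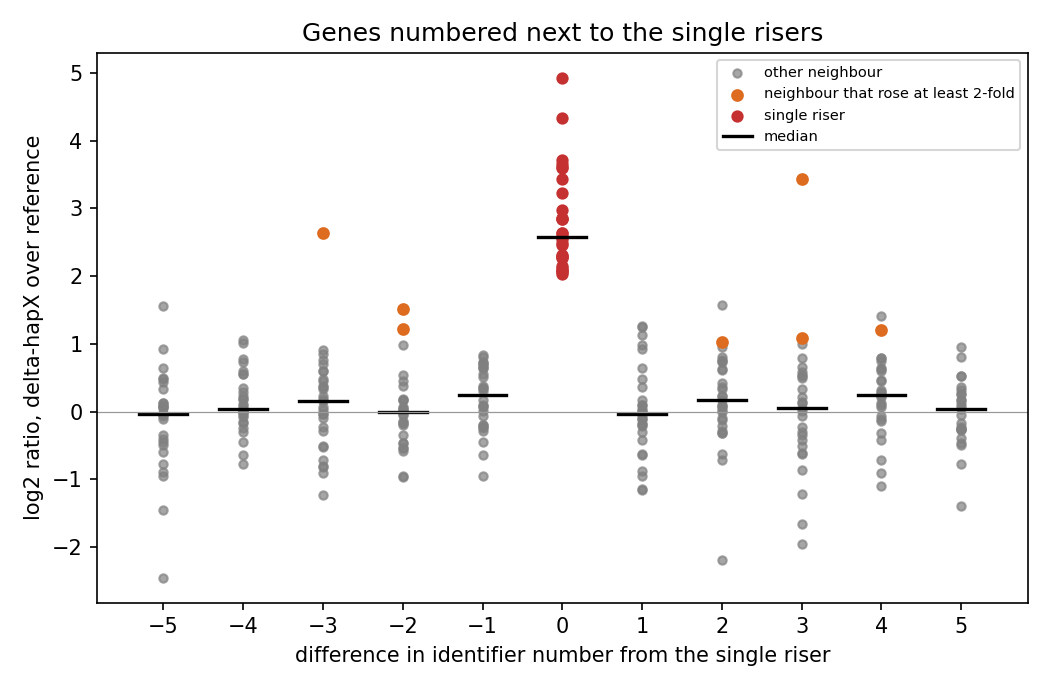
Log2 ratio, delta-hapX over reference (vertical), of the 29 single risers at position 0 and of the listed genes up to 5 identifier numbers away (horizontal). Black bars are medians and orange points are neighbours that met the conditions of a riser. The medians of the neighbouring positions stay near 0. The highest orange points, at -3 and 3, are NRRL3_03141 and NRRL3_03144 seen from each other.

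Around the limits of the rule the values were continuous. Just inside the ratio of 4 lay NRRL3_00078 with 4.10, NRRL3_11389 with 4.18 and NRRL3_09814 with 4.21. Just outside lay NRRL3_03935 with 4.92 and 3.86 CPM against 19.0 and 19.1 CPM, NRRL3_10111 with 1.17 and 0.724 against 5.73 and 4.85 CPM, and NRRL3_01501 with 242 and 196 against 729 and 971 CPM, at ratios of 3.997, 3.997 and 3.87. The lowest delta-hapX means inside the limit of 5 CPM were 5.67 CPM for NRRL3_09814, 5.73 CPM for NRRL3_11752 and 6.07 CPM for NRRL3_11389. The gene nearest below it, NRRL3_08973, had a mean of 4.38 CPM, with 6 and 0 reads in the reference and 15 and 17 reads in delta-hapX. All 57 genes with a ratio of 4 and 5 CPM in delta-hapX had separate strains, so that condition removed 0 of them.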

How the data were processed

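Per the series' design text, reads were mapped to the A. niger NRRL3 genome, with Bowtie2 and HISAT listed among the tools in the submitters' processing notes. The quantifier, annotation release, strandedness and filters were not given in the sources used here. Per the file headers, the authors deposited for each library a gene length, an expected count per gene (an estimated read number, not normalized) and an FPKM value computed by the authors. Genes absent from a table were set to 0. All 10898 lengths are multiples of 3 and are called coding lengths. Between 24 and 37 expected counts per library were not whole (any decimal other than 0), none of them of the 29 genes, and they were rounded for the count tests.

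CPM was the expected count divided by the sum of its library. Ratios compare strain means with 0.5 CPM added. The edgeR quasi-likelihood F test (edgeR 4.0.16, R 4.3.3) was fitted to all genes and 4 libraries with strain as the only term, TMM scaling, filterByExpr and Benjamini-Hochberg adjustment at 0.05. DESeq2 1.42.0, limma 3.58.1 on log2(FPKM + 1), other scalings, filters and added constants, a replicate block and leaving out each library were the alternatives. The fits were checked on simulated data. Intervals are exact binomial (95%) on summed counts.

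The genes, the rule and the lists were chosen with earlier results of these data known. The planned pathway lists were not filled, because no identifier matched a name. Genes were named by a rule: the 6 largest ratios of each reference level, the 5 highest CPM and FPKM values, the 3 smallest ratios and those just outside, any gene without reads in a reference library, the 3 largest delta-hapX replicate differences, and the shortest and longest gene. It named 28 of the 29, and NRRL3_05252 was added to complete them. Neighbours were named after their values were seen.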

Additional observations from a re-analysis of the deposited data

How the results depend on the processing

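Each result rests on 2 libraries per strain. The number of single risers, 29, was 27 to 33 under other scalings, FPKM values or added constants, 37 with no minimum level, 30 with no limits on length and 26 when risers 2 numbers away were barred too. It became 55 when neighbours were ignored. With no minimum level 26 of the 29 stayed single, while NRRL3_00078, NRRL3_01181 and NRRL3_02810 did not, because a neighbour became a riser. Leaving out 1 library gave 33 to 39, of which 24 to 28 were shared with the 29. The number of risers, 334, became 595 with no minimum level. The count of all genes called, 2269, became 1386 with DESeq2's Wald test and 1201 with limma on log2(FPKM + 1) without a filter, and the cause was not tested. DESeq2 called all 26 of the 29 for which it gave an adjusted p. Limma on filtered values called 27 and with no filter 28. The missing genes were NRRL3_09814 and, on filtered values, NRRL3_11389.

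The letters a and b are not said to pair libraries. Deviations of same-lettered libraries correlated at 0.0412 over 7614 genes. With a replicate block edgeR called 2628 genes, and the call on the 29 was unchanged.

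Of 336 refits of the 28 genes named by the rule, 312 moved by less than the gene's own replicate SD and 0 changed sign. That SD grows with the difference between replicates, so it tends to exceed the shift from leaving out 1 library. For NRRL3_09814, the fall from 2.55 to 1.54 without reference library a counted as less than the SD. The 312 is therefore no measure of stability. Refits that moved by over 1.5 times when a library was left out were of genes with reference means under 5 CPM. Without reference library a, the fitted log2 fold change of NRRL3_08596 went from 6.32 to 8.51, of NRRL3_08281 from 5.02 to 4.07, of NRRL3_03087 from 3.91 to 4.59, of NRRL3_01957 from 2.98 to 3.93 and of NRRL3_10597 from 2.44 to 1.83. Without reference library b, they were 5.51 for NRRL3_08596, 8.08 for NRRL3_08281, 7.48 for NRRL3_09814, 3.46 for NRRL3_10597 and 4.83 for NRRL3_03144. A fitted value against a library with 0 reads depends on the prior count and is no bound.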

Other observations

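The same rule turned round, with the strains exchanged, gave 392 genes at least 2-fold lower in delta-hapX, 65 at least 4-fold lower and 45 single ones within the limits on length, against 334, 57 and 29 for the higher genes. The median of the coding lengths of the single lower genes was 519 bases (single risers 1320), and their median level in the strain where they were high was 413 CPM, against 57.6 CPM. Of the 45, 2 had a ratio of 8 or more, against 8 of the 29, while the largest ratio was 181 among the lower genes and 30.4 among the single risers. A deleted gene loses its own transcript, and hapX could not be located, so whether it is among the 45 or gave the ratio of 181 is not known. These differences between the lower and the higher genes were not tested.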
